A study of Mus musculus with 7 samples.

Results

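The 10 genes described here mark T cells and cytotoxic lymphocytes: *Cd3d*, *Cd3e* and *Cd3g* (the CD3 chains of the T cell receptor complex), *Cd4* and *Cd8a* (the coreceptors), *Foxp3* and *Ctla4* (the regulatory T cell factor and an inhibitory receptor), and *Gzmb*, *Prf1* and *Nkg7* (granzyme B, perforin and a granule membrane protein). They were taken by symbol, and all 10 are listed once in each of the 7 files, among 23284 gene symbols. Their messages were scarce in every papilloma, the highest value being 1.11 FPKM (fragments per kilobase of transcript and per 1000000 mapped fragments). The question was whether they differed between papillomas with and without transgenic *Nanog*, and none of the 10 passed the test across all genes. That test did not call *Nanog* itself either, so it had little power with these group sizes.

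The papillomas were benign skin tumors raised in mice of C57BL/6 background by the DMBA/TPA protocol, in which a carcinogen is applied once to the skin and a tumor promoter repeatedly afterwards. CTR papillomas (n = 4) came from mice that carry the tetO-Nanog allele at *Col1a1* and lack the K5-rtTA transactivator. TG papillomas (n = 3) came from mice, littermates of the control genotype, that carry the same tetO-Nanog allele together with K5-rtTA. Both groups drank doxycycline at 2 mg/ml throughout, so CTR mice differ from TG mice in the transactivator and not in the drug. The bovine keratin 5 promoter drives rtTA in keratinocytes of the basal layer, so lymphocytes are not the cells meant to express the transgene. Mice were age-matched at the start. Each papilloma was collected from a different mouse, either when the protocol ended or when the mouse reached its humane endpoint, and the labels do not say which. Whole papillomas were sequenced, so fewer cells of a type and less RNA per cell cannot be told apart.

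T cells recognize peptides through a receptor whose signal is passed on by the CD3 chains, which are made by nearly all T cells and by few other cells. CD4 marks helper and regulatory T cells but is also made by some myeloid cells, and CD8 marks cytotoxic T cells and some dendritic cells. Regulatory T cells depend on the transcription factor FOXP3 and display CTLA4, which competes for the costimulatory ligands CD80 and CD86. Cytotoxic T cells and natural killer cells kill by releasing perforin and granzymes from granules. Mouse epidermis also holds resident T cells that express CD3 with a gamma-delta receptor and commonly lack CD4 and CD8.

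The libraries held between 10077008 and 15711400 reads on genes, as implied by the width of the interval that Cufflinks gives for each value. CTR 3 and TG 1 were the deeper ones. *Nanog* lay between 2.70 and 12.7 FPKM in CTR and between 36.9 and 66.9 FPKM in TG papillomas, which follows the labels. TG 3 stood apart from all other libraries. Its summed FPKM over 9 skeletal muscle genes was 646, against at most 3.70 elsewhere, and it was 684 over 7 fibroblast genes against at most 130.3 in CTR papillomas. Differences and list medians are therefore mostly given with and without TG 3.

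*Cd3g* and *Cd3d* lie head to head on chromosome 9, with 1355 bases between their starts in the files. *Cd3g* spans 9:44969572-44980431 on the minus strand, *Cd3d* 9:44981786-44987052 on the plus strand and *Cd3e* 9:44998743-45009590 on the minus strand of GRCm38, a cluster of 40019 bases. The 250 bases before each start are printed here for the CD3 chains, since the 3 genes serve as parallel measures of the same receptor, and for *Foxp3* and *Ctla4*, which had the lowest p-values of the 10 genes. The sequences are from RefSeq on GRCm38.p6, 5′ to 3′ on the strand of the gene, and capitals mark the letters of a motif that was searched.
*Cd3g* (chr9:44980432-44980681, minus strand): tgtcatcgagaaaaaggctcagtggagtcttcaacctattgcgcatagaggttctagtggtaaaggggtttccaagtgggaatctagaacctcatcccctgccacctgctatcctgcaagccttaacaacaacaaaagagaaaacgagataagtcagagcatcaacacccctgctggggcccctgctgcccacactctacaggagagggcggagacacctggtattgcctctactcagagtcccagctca
*Cd3d* (chr9:44981536-44981785, plus strand): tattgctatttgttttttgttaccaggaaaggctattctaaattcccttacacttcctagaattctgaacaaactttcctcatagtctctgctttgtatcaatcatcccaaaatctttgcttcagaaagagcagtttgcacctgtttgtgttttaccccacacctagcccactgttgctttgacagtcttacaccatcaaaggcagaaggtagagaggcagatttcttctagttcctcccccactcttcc
*Cd3e* (chr9:45009612-45009861, minus strand): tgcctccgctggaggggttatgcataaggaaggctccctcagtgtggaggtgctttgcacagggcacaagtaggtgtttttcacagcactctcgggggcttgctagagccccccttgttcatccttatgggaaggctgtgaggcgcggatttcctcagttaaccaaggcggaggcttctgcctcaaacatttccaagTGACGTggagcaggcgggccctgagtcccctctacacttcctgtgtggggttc
*Foxp3*, upstream start (chrX:7579426-7579675, plus strand): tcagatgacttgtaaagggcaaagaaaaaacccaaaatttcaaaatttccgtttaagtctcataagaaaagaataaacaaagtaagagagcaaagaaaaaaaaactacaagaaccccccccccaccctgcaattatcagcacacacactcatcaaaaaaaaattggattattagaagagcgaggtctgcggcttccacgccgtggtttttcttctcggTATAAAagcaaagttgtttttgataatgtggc
*Ctla4* (chr1:60908775-60909024, plus strand): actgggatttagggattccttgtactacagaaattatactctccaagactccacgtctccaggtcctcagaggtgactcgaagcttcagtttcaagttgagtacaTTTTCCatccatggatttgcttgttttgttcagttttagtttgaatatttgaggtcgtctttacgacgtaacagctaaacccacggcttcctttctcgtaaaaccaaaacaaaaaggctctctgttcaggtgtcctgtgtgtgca

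RefSeq windows were given for 9 of the 10 genes. The motifs were searched on both strands and can overlap. TATAAA, the core of the TATA box, was found in the *Foxp3* window 32 bases before the start and in 12.4% of all 32851 windows of this length. TGACGT, part of the cyclic AMP response element, was found in the *Cd3e* window and in 6.47% of all windows. The nuclear factor of activated T cells core GGAAAA was found, on the other strand, in the *Ctla4* window and in 20.4% of all windows. Neither the RUNX core TGTGGT (14.0% of all windows), nor the E-box CAGCTG (13.0%), nor TAATGG, a core bound by NANOG (6.57%), was in any of the 5 windows shown. The window of a second *Foxp3* start, 807 bases downstream and not printed, held TAATGG 160 bases, CAGCTG 219 bases and the complement of GGAAAA 141 bases before that start. The windows of *Cd3g* and *Cd3d* held none of the 6 motifs. A match is a description of letters and not a site, and no match says only that these letters are absent from this window.

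The levels of the 10 genes were all low. In mean FPKM over the 7 papillomas, *Cd3g* came first at 0.624 ± 0.351 (SD, n = 7), followed by *Ctla4* at 0.508 ± 0.330, *Cd3d* at 0.335 ± 0.101 and *Cd3e* at 0.330 ± 0.144. *Foxp3* (0.277 ± 0.164), *Cd4* (0.268 ± 0.213) and *Gzmb* (0.210 ± 0.225) came next, then *Cd8a* (0.105 ± 0.0316), *Nkg7* (0.105 ± 0.113) and *Prf1* (0.00890 ± 0.0150). No neighbours in this order differed in the same direction in every papilloma. *Cd3g* exceeded *Ctla4* in 5 of 7 papillomas, *Ctla4* exceeded *Cd3d* in 4, and *Cd3d* exceeded *Cd3e* in 3. At this depth few reads lie behind a value: 21 of the 70 values rested on at most 3 reads, 7 were listed at 0, and the largest rested on 40 reads. A listed 0 for *Prf1* allows up to between 0.0623 and 0.0972 FPKM at 3 reads, and such limits cover counting error only.

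**Figure D1:**
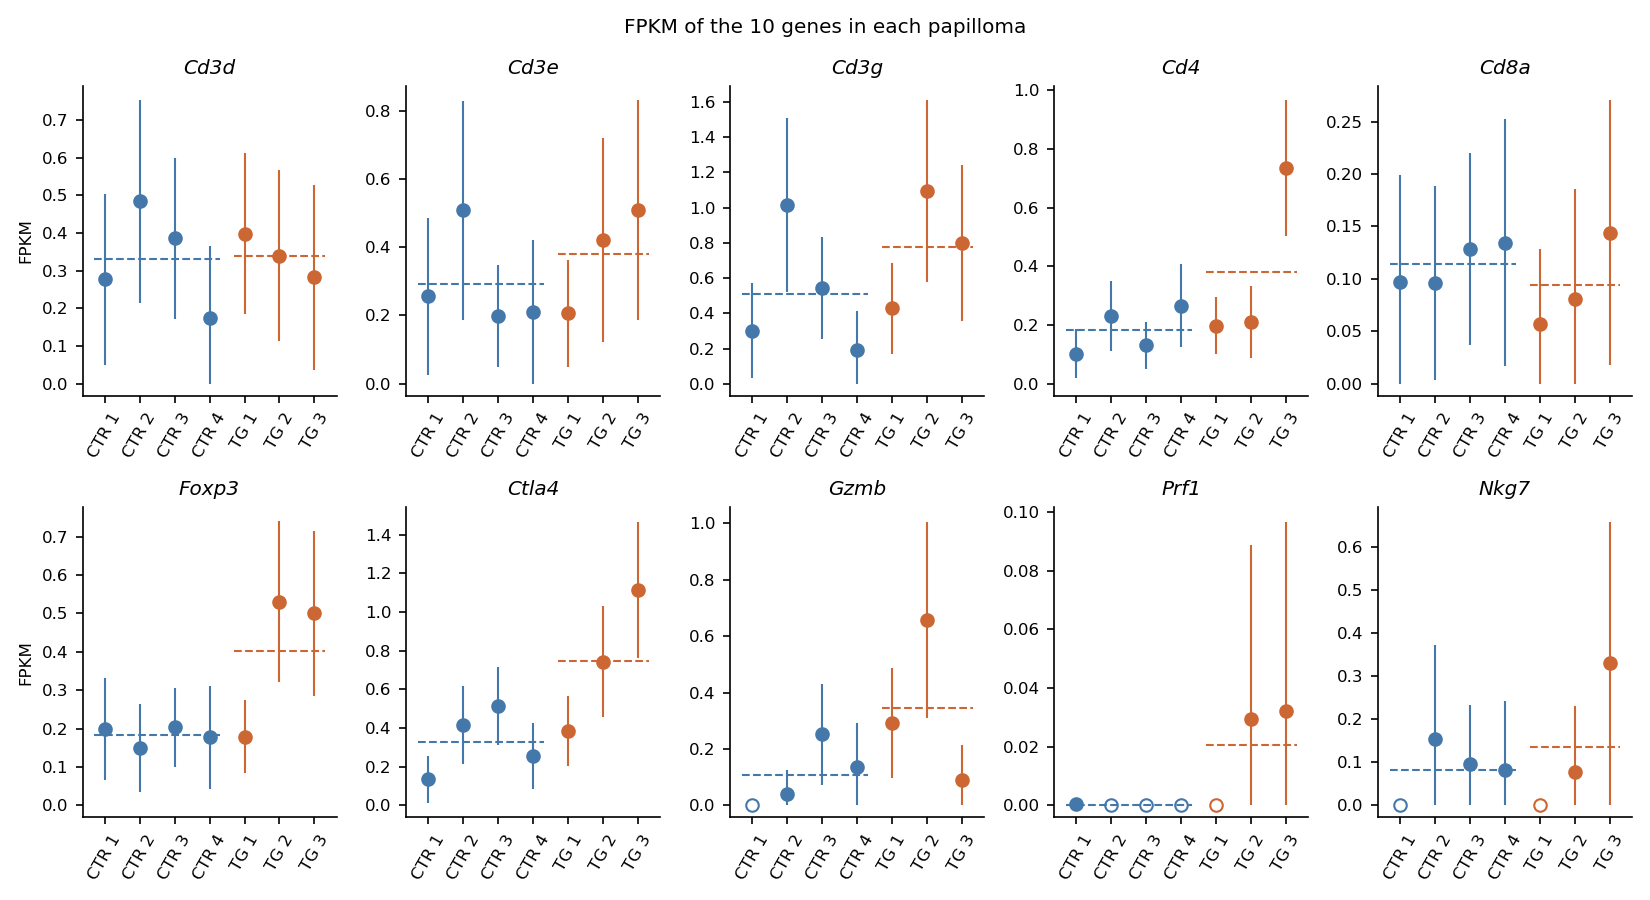
FPKM of the 10 genes (vertical axes, linear and different for each gene) in the 4 CTR papillomas (blue) and the 3 TG papillomas (orange). Points are single papillomas with the interval of counting error given by Cufflinks, dashed lines are group means, and open circles are values listed at 0. The groups overlap for every gene, while Foxp3 and Ctla4 are highest in TG 2 and TG 3, and Cd4 stands out in TG 3 at 0.734 FPKM.

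The CD3 chains did not separate the groups. *Cd3d* was at 0.277, 0.484, 0.386 and 0.174 FPKM in CTR 1 to CTR 4 and at 0.399, 0.340 and 0.282 FPKM in TG 1 to TG 3. *Cd3e* was at 0.257, 0.508, 0.198 and 0.211 FPKM in CTR and at 0.206, 0.422 and 0.509 FPKM in TG papillomas. *Cd3g* was at 0.300, 1.01, 0.541 and 0.191 FPKM in CTR and at 0.428, 1.09 and 0.799 FPKM in TG papillomas. The TG values lay inside the CTR range for *Cd3d*, and CTR 2 was the highest or close to the highest papilloma for all 3 chains. On the log2(FPKM + 0.5) scale, the TG minus CTR difference was 0.030 ± 0.14 (SE) for *Cd3d*, 0.15 ± 0.18 for *Cd3e* and 0.36 ± 0.31 for *Cd3g*. Without TG 3 the differences were 0.080, 0.040 and 0.33. Two-sided exact permutation tests over the 35 assignments gave p = 0.857 for *Cd3d*, p = 0.457 for *Cd3e* and p = 0.343 for *Cd3g*, where the smallest p possible is 0.0286. The 95% interval of the fold ran from 0.805 to 1.29 for *Cd3d*, from 0.826 to 1.48 for *Cd3e* and from 0.769 to 2.15 for *Cd3g*, on the same scale, which understates changes of low genes. The sum of the 3 chains was 0.834, 2.01, 1.13 and 0.576 FPKM in CTR 1 to CTR 4, and 1.03, 1.85 and 1.59 FPKM in TG 1 to TG 3.

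The coreceptors were lower still. *Cd4* (6:124864693-124888209, minus strand) was at 0.102, 0.231, 0.130 and 0.266 FPKM in CTR papillomas and at 0.199, 0.211 and 0.734 FPKM in TG papillomas. TG 3 was the only papilloma outside the CTR range, and its value rested on 40 reads. The TG minus CTR difference was 0.32 ± 0.22 (SE, log2 scale), with an exact permutation p = 0.257, and 0.054 ± 0.11 without TG 3. *Cd8a* (6:71373427-71379171, plus strand) was at 0.0966, 0.0961, 0.129 and 0.135 FPKM in CTR and at 0.0571, 0.0808 and 0.144 FPKM in TG papillomas. TG 1 and TG 2 lay below every CTR papilloma and TG 3 above every one, but this order rests on few reads. TG 1 and TG 2 had 2.55 and 2.38 reads, against 3.56 in CTR 1, and TG 3 and CTR 4 had 5.21 each. The difference was -0.050 ± 0.062 (SE, log2 scale), with an exact permutation p = 0.457 and a fold between 0.873 and 1.07. This fold is of FPKM + 0.5, an offset above every *Cd8a* value, so the narrow interval does not show equal levels. The ratio of mean FPKM, TG over CTR, was 0.825, and the difference was -0.16 with a pseudocount of 0.1.

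The ratio of *Cd8a* to *Cd4* FPKM was 0.945, 0.417, 0.985 and 0.505 in CTR 1 to CTR 4 and 0.288, 0.383 and 0.196 in TG 1 to TG 3. All 3 TG papillomas thus lay below all 4 CTR papillomas, with means of 0.289 ± 0.0934 (SD, n = 3) and 0.713 ± 0.294 (SD, n = 4). This ratio is given as a description without a test. The *Cd8a* values behind it rest on between 2.38 and 7.91 reads a papilloma, none of them a whole number, so shared reads may add to their uncertainty. In TG 3 the ratio moved with the high *Cd4* value and in TG 1 and TG 2 with the low *Cd8a* values. No other ratio computed among these genes lacked overlap between the groups. Over the mean of the CD3 chains, *Cd8a* was between 0.144 and 0.701 in CTR and between 0.131 and 0.272 in TG papillomas. *Cd4* over that mean was between 0.345 and 1.39 in CTR and between 0.341 and 1.39 in TG papillomas.

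*Foxp3* and *Ctla4*, both genes of regulatory T cells, each exceeded every control in TG 2 and TG 3 and not in TG 1. *Foxp3* (X:7579676-7595243, plus strand) was at 0.198, 0.150, 0.203 and 0.177 FPKM in CTR papillomas and at 0.178, 0.531 and 0.50 FPKM in TG papillomas. TG 2 and TG 3 lay well above the highest CTR papilloma, while TG 1 lay among the controls. The values of TG 2 and TG 3 correspond to 25.6 and 21.7 reads, not whole numbers. Whether reads shared with other genes are part of them was not tested. The TG minus CTR difference was 0.38 ± 0.15 (SE, log2 scale). The limma p was 0.0411 before and 0.742 after Benjamini-Hochberg adjustment over the 19124 genes detected, and the exact permutation p was 0.0857. Without TG 3, a single TG papilloma was left above the controls, and the difference was 0.29 ± 0.16 (SE), with a limma adjusted p = 0.677.

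*Ctla4* (1:60909025-60915830, plus strand) was at 0.134, 0.414, 0.514 and 0.255 FPKM in CTR and at 0.383, 0.743 and 1.11 FPKM in TG papillomas. TG 1 again lay among the controls. The TG minus CTR difference was 0.57 ± 0.30 (SE, log2 scale) in the fit restricted to genes averaging 0.5 FPKM or more, with a limma adjusted p = 0.813 and an exact permutation p = 0.143. The difference was 0.36 ± 0.23 (SE) without TG 3. Relative to the mean of the 3 CD3 chains, *Foxp3* was between 0.224 and 0.922 in CTR papillomas and between 0.518 and 0.943 in TG papillomas. The same ratio for *Ctla4* was between 0.483 and 1.37 in CTR papillomas, and 1.11, 1.20 and 2.10 in TG 1 to TG 3. Both ratios overlapped between groups, and TG 3 alone lay above the CTR range for *Ctla4* per CD3.

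**Figure D2:**
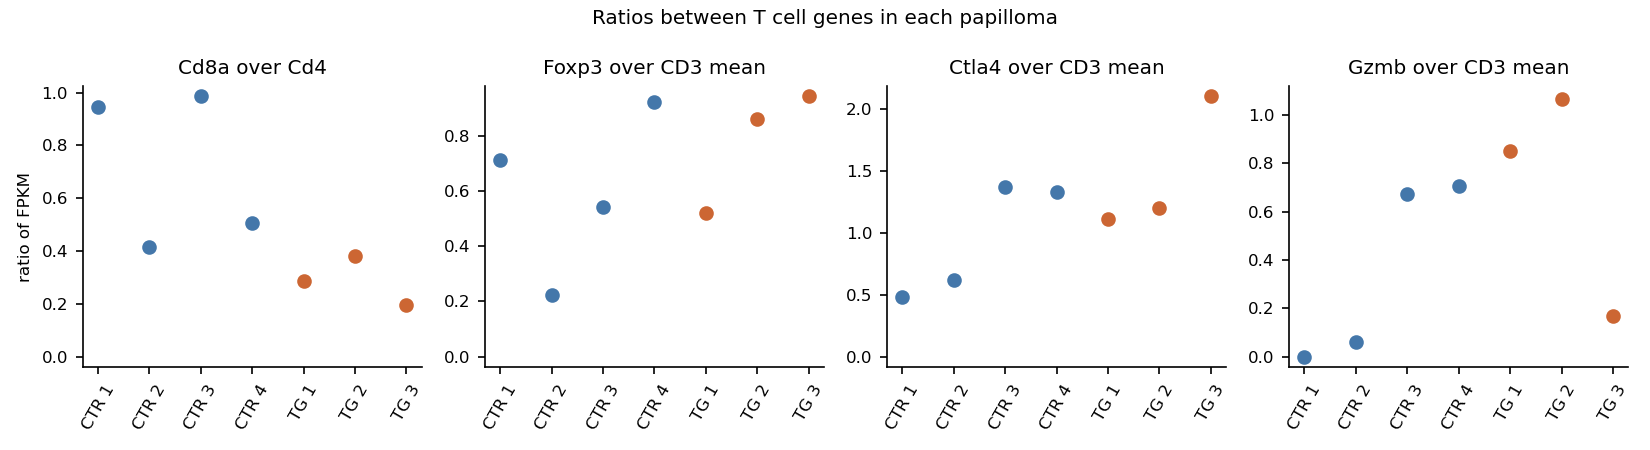
Ratios of FPKM (vertical axes, linear) in each of the 4 CTR (blue) and 3 TG (orange) papillomas: Cd8a over Cd4, and Foxp3, Ctla4 and Gzmb over the mean of Cd3d, Cd3e and Cd3g. Points are single papillomas. The ratio of Cd8a to Cd4 is at most 0.383 in TG and at least 0.417 in CTR papillomas, and the other 3 ratios overlap between the groups.

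Among the cytotoxic genes, *Gzmb* was detected in 6 of 7 papillomas and *Prf1* was barely detected. *Gzmb* (14:56258858-56262260, minus strand) was listed at 0 in CTR 1 and was at 0.0412, 0.252 and 0.135 FPKM in CTR 2 to CTR 4. It was at 0.293 FPKM in TG 1, 0.658 FPKM in TG 2 and 0.0888 FPKM in TG 3. TG 1 and TG 2 exceeded every CTR papilloma and TG 3 did not, whereas for *Foxp3* and *Ctla4* TG 1 was the one among the controls. TG 1 exceeded CTR 3, the highest control, with 9.00 reads against 8.00, so this step is within counting error. The TG minus CTR difference was 0.44 ± 0.24 (SE, log2 scale), with an exact permutation p = 0.200. Without TG 3 it was 0.68 ± 0.21 (SE), with a limma adjusted p = 0.395. *Gzmb* belongs to a cluster of similar granzyme genes, and its TG 2 value corresponds to 14.3 reads, not a whole number, so the sharing of reads among copies leaves this value uncertain.

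*Prf1* (10:61297836-61304263, plus strand) had 1 read in TG 2 and 1 read in TG 3, at 0.0296 and 0.0322 FPKM. It was listed at 0 in CTR 2, CTR 3, CTR 4 and TG 1 and at 0.000525 FPKM, less than a read, in CTR 1. All these values lie under the limit of 3 reads, so a difference between groups was not detectable at this depth. *Nkg7* (7:43437138-43438246, plus strand) was listed at 0 in CTR 1 and TG 1, and was at 0.154, 0.0959 and 0.0809 FPKM in CTR 2 to CTR 4. It was at 0.0770 FPKM in TG 2 and 0.329 FPKM in TG 3, the only value of the gene to rest on more than 2 reads. The TG minus CTR difference of *Nkg7* was 0.097 ± 0.18 (SE, log2 scale), with an exact permutation p = 0.743, and it turned to -0.11 ± 0.11 without TG 3.

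Across the 10 genes, 0 were called at an adjusted p under 0.05, against 0% of the 12299 genes averaging 0.5 FPKM or more. *Cd3g* and *Ctla4* alone reached that average. Over all 19124 genes detected in any papilloma, again 0 of the 10 were called, against 0% of all genes. Their adjusted p-values from limma lay between 0.742 and 0.972. At an unadjusted p under 0.05, 1 of the 10 genes (*Foxp3*) was higher in TG, against 4.99% of all genes, and 0 were lower, against 1.65%. Either direction together held 6.64% of all genes. No gene of the 10 had all TG papillomas above all CTR papillomas, which 5% of all genes had, and none had them all below, which 1.69% had. The difference was above 0 for 9 of the 10 genes, with a median of 0.24 on the log2 scale beside 0.050 over all 19124 genes. Without TG 3 the median was 0.067, beside -0.0049 over all genes, and 8 of the 10 differences were above 0.

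**Figure D3:**
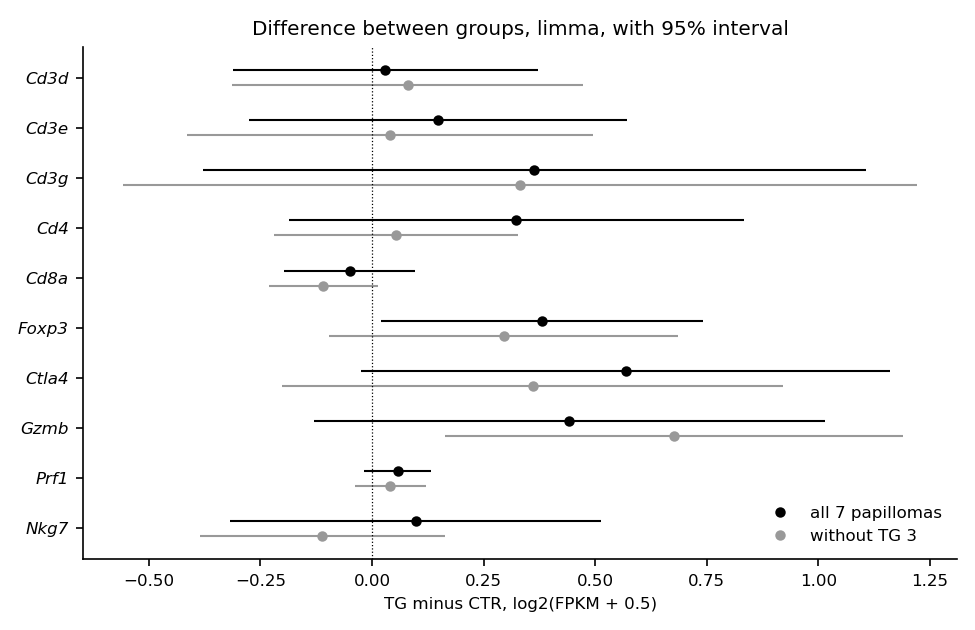
TG minus CTR difference of mean log2(FPKM + 0.5) (horizontal axis) for the 10 genes, from limma over all genes detected, with 95% intervals. Black points use all 7 papillomas and grey points leave out TG 3. With all papillomas the interval of Foxp3, from 0.020 to 0.74, leaves out 0 before adjustment over all genes, and without TG 3 that of Gzmb, from 0.16 to 1.19, does.

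Papillomas of the same group also differed from each other. The 10 genes together had 3.69, 8.55, 6.70 and 4.89 reads per 1000000 reads on genes in CTR 1 to CTR 4, and 5.89, 11.1 and 13.5 in TG 1 to TG 3. TG 2 and TG 3 were thus above every CTR papilloma and TG 1 was between CTR 4 and CTR 3. Of the 10 genes, 6 were highest in TG 3, 3 in TG 2 (*Cd3g*, *Foxp3* and *Gzmb*) and 1 in CTR 2 (*Cd3d*). Values in TG 3 were higher in general, with a median over all entries of 1.04 FPKM, against 0.481 to 0.596 FPKM in the other papillomas. Leaving out TG 1, *Foxp3*, *Ctla4* and *Prf1* had both remaining TG papillomas above all controls, as 13.3% of all genes did, and 0 of the 10 had both below, as 5.15% did. Leaving out TG 3, *Gzmb* had both above all controls, as 8.86% of all genes did, and *Cd8a* had both below, as 7.05% did. For *Gzmb* and *Cd8a* the gap to the nearest control rests on few reads.

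Leukocyte genes in general were high in TG 3, and the CD3 chains did not share this. *Ptprc*, which encodes CD45 on all nucleated blood cells, was at 8.17 FPKM in TG 3 and between 0.766 and 1.46 FPKM in the other 6 papillomas. The mean of the CD3 chains amounted to 6.49% of *Ptprc* in TG 3, and to between 13.7% and 65.7% in the other papillomas. Summed over 7 pan-leukocyte genes, TG 3 was at 113 FPKM and the CTR papillomas between 16.3 and 30.3 FPKM. All 7 pan-leukocyte genes were highest in TG 3. The sums for 10 macrophage and monocyte genes (165 FPKM, against 39.0 to 55.3 FPKM in CTR), 9 dendritic and Langerhans cell genes (455 FPKM, against 97.4 to 185 FPKM) and 6 neutrophil genes (382 FPKM, against 5.61 to 39.6 FPKM) were likewise highest in TG 3. Relative to the CTR mean, TG 3 was 4.68-fold for pan-leukocyte genes, 3.38-fold for macrophage genes and 1.40-fold for the CD3 chains. The part of these other cell types in the *Cd4*, *Ctla4* and *Nkg7* values of TG 3 was not tested. The summed level of 10 keratinocyte genes was 13357 FPKM in TG 3, the lowest of all, against 16370 to 19745 FPKM in CTR papillomas. Among B and plasma cell genes, *Blnk* was expressed in every papilloma and the others were near 0, with *Cd79b* at most at 0.383 FPKM.

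**Figure D4:**
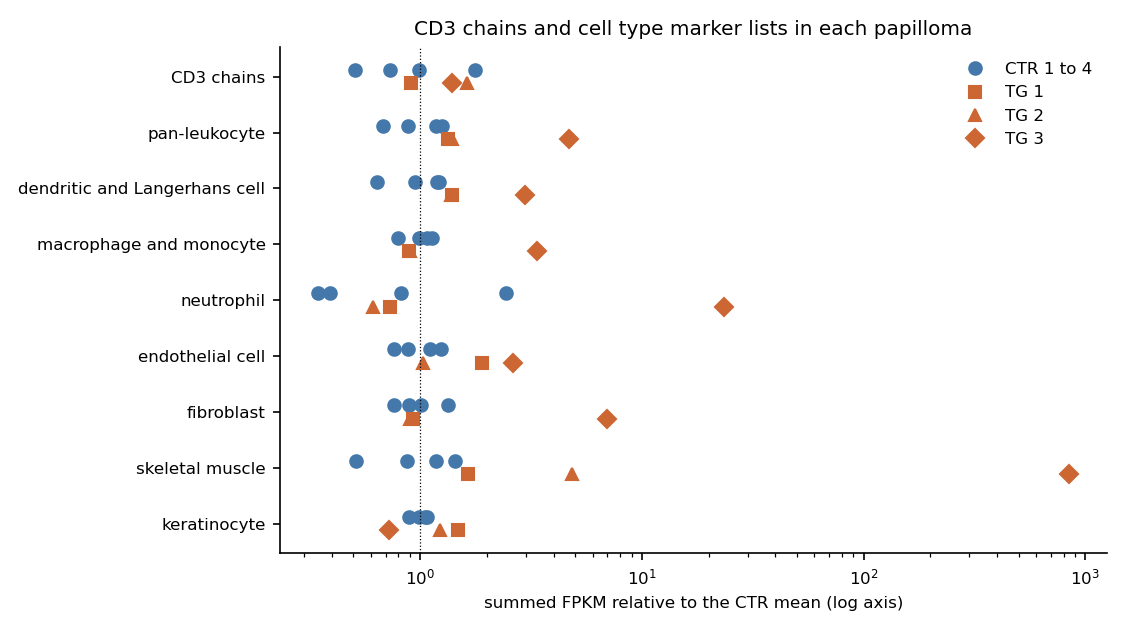
Summed FPKM of the CD3 chains and of 8 cell type marker lists in each papilloma, divided by the mean of the 4 CTR papillomas (horizontal axis, log scale). Blue circles are CTR papillomas and orange symbols TG papillomas. TG 3 is the highest papilloma in every list but the CD3 chains and keratinocytes; its CD3 sum is 1.40 times the CTR mean and lies below those of CTR 2 and TG 2.

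Other genes of the T cell receptor pathway were measured as well. Of 23 genes of T cell receptor signaling, all detected, 0 were called, and 2 were higher in TG at an unadjusted p under 0.05. Of all genes, 4.99% were higher and 1.65% lower at that p, 5% had every TG above every CTR papilloma and 1.69% every one below. The median difference of the 23 genes was 0.14, beside 0.050 over all genes, and 0.062 without TG 3, beside -0.0049. *Thy1*, *Cd5*, *Fyb* and *Lcp2* had the highest means of the list, and *Thy1*, a surface protein that other skin cells also make, reached 14.4 FPKM in TG 3. *Cd6*, a receptor of mature T cells, was the only gene of the list with no overlap, at 0.0839 to 0.124 FPKM in CTR and 0.198, 0.216 and 0.445 FPKM in TG 1 to TG 3. Its difference was 0.37 ± 0.11 (SE, log2 scale), and 0.23 without TG 3, with an exact permutation p = 0.0286, the smallest possible, and a limma adjusted p = 0.713. *Cd6* was named for its lack of overlap, and a permutation p at or near the smallest possible follows from that choice.

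Of 18 genes of T cell fate and homing, 0 were called, 4 were higher at an unadjusted p under 0.05 (4.99% of all genes) and 4 had every TG above every CTR papilloma (5% of all genes). The median difference was 0.39, and 0.16 without TG 3. *Il2rg*, the common gamma chain of interleukin receptors, was at 1.71 to 2.24 FPKM in CTR and at 2.30, 3.18 and 5.57 FPKM in TG 1 to TG 3. *Cxcr6*, a homing receptor of tissue T cells, was at 0.0618 to 0.319 FPKM in CTR and at 0.446, 0.418 and 0.782 FPKM in TG papillomas. *Ikzf3*, a transcription factor of lymphocytes, was at most at 0.0437 FPKM in CTR and at least at 0.0499 FPKM in TG papillomas. None of these 3 genes passed adjustment (limma adjusted p between 0.688 and 0.742). Leaving out TG 3, the difference went from 0.75 to 0.45 for *Il2rg* and from 0.63 to 0.47 for *Cxcr6*, and stayed at 0.16 for *Ikzf3*. *Bcl11b*, *Tcf7* and *S1pr1*, the others of highest mean, overlapped between groups.

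Of 17 regulatory and checkpoint genes, 0 were called, 4 were higher and 1 was lower at an unadjusted p under 0.05 (4.99% and 1.65% of all genes). The median difference was 0.24, and 0.095 without TG 3. *Icos*, a costimulatory receptor of activated and regulatory T cells, was at 0.304, 0.225, 0.267 and 0.282 FPKM in CTR and at 0.404, 0.663 and 0.697 FPKM in TG papillomas, with no overlap. Its difference was 0.49 ± 0.13 (SE, log2 scale), and 0.42 without TG 3, with an exact permutation p = 0.0286 and a limma adjusted p = 0.659. *Icos* too was named for its lack of overlap, from which the low permutation p follows. *Cd86*, a ligand of CTLA4 and CD28, was at 0.389 to 1.01 FPKM in CTR and at 1.14, 1.22 and 1.66 FPKM in TG 1 to TG 3. *Entpd1*, the ectonucleotidase CD39, was at 0.740 to 1.06 FPKM in CTR and at 1.61, 1.303 and 5.64 FPKM in TG papillomas. *Tnfrsf18*, which encodes the receptor GITR, went the other way, at 11.6 to 18.4 FPKM in CTR and 8.58 to 11.3 FPKM in TG papillomas. Its level was far above that of the CD3 chains in every papilloma, and *Tnfrsf4* and *Cd80*, also among the highest of the list, overlapped between groups. Leaving out TG 3, the difference went from 0.70 to 0.58 for *Cd86*, from 1.07 to 0.52 for *Entpd1* and from -0.60 to -0.71 for *Tnfrsf18*.

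Of 32 genes of cytotoxic granules and natural killer cells, 7 were listed at 0 in every papilloma and 25 were detected. Among them, 0 were called, 3 were higher at an unadjusted p under 0.05 (4.99% of all genes), and the median difference was 0.061 (0.077 without TG 3). *Crtam*, a receptor of activated cytotoxic lymphocytes, was listed at 0 in all 4 CTR papillomas and was at 0.0463, 0.0641 and 0.0644 FPKM in TG 1 to TG 3, from 6.00 reads in all. Its limma adjusted p was 0.583. *Srgn*, the granule proteoglycan serglycin that myeloid cells also make, was at 85.7 FPKM in TG 3 and at most at 18.4 FPKM elsewhere. *Ctsc*, *Rab27a* and *Serpinb9* were the others of highest mean, and *Ctsc*, at 15.5 to 46.6 FPKM, exceeded *Gzmb* in every papilloma. Of 9 gamma-delta and type 17 genes, 7 were in the files (all but *Trdc* and *Trgc1*) and 6 were detected, with 0 called and 0 at an unadjusted p under 0.05. *Sox13*, at 8.23 to 26.6 FPKM, made up most of their sum, and *Il23r* was at most at 0.555 FPKM, in TG 3. The level of *Sox13* was far above that of the CD3 chains in every papilloma, so the sum is no measure of gamma-delta T cells.

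The MHC class I pathway, which loads peptides for CD8 T cells, was expressed in all papillomas. Of its 9 genes, 0 were called, 2 were higher at an unadjusted p under 0.05 (4.99% of all genes), and all 9 had a difference above 0, with a median of 0.38 (0.39 without TG 3). *Tap2*, a subunit of the peptide transporter, was at 2.77, 2.49, 2.92 and 2.66 FPKM in CTR and at 4.17, 5.24 and 4.55 FPKM in TG papillomas. These groups did not overlap, and the difference was 0.68 ± 0.15 (SE, log2 scale), or 0.69 without TG 3, with an exact permutation p = 0.0286 and a limma adjusted p = 0.558 over the 12299 genes. *Tap2* was named for this lack of overlap, so its permutation p is no separate support. *B2m*, *H2-D1*, *H2-K1* and *Tapbp* overlapped between groups, and *B2m* was highest in TG 2, at 513 FPKM.

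The genes whose pattern was most like that of the 10 genes were ranked by their Pearson correlation with the mean of the centered log2 values of the 10. Over the 7 papillomas and 12297 other genes, the 10 closest were *Entpd2* (r = 0.99), *Zdhhc9* and *Enpp2* (0.96 each), *P2rx5* (0.96), *Ubl7* (0.96), *Rgs1* (0.95), *Csad* (0.95), *Slc17a9* (0.95), *Gm5483* (0.94) and *Psmb8* (0.94). These are the highest of many values over few papillomas, which share library depth and the state of TG 3, and are given as a description. *Psmb8*, an immunoproteasome subunit of the MHC class I list, was at 2.55 to 3.79 FPKM in CTR and at 3.55, 4.78 and 6.34 FPKM in TG 1 to TG 3. *Rgs1*, which many activated lymphocytes make, was at 0.266 to 0.843 FPKM in CTR and at 0.240, 1.32 and 2.07 FPKM in TG 1 to TG 3.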

How the data were processed

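RNA from papillomas of 4 CTR and 3 TG mice was sequenced as stranded poly(A) libraries with short single reads. The authors used Samtools 0.1.16, Bowtie 0.12.7 and TopHat 2.0.4 for alignment to the GRCm38/mm10 genome, and deposited FPKM values per gene from Cufflinks 1.3.0 with the UCSC annotation, with intervals. Reads behind a value, between 10077008 and 15711400 a library, were derived from these intervals. Of the 70 values of the 10 genes, 53 were whole within 0.05 reads. Reads with a few matches were kept, so similar genes may share them.

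Entries of a symbol were summed, and 162 symbols with a failed status in any file were left out. Values were fitted as log2(FPKM + 0.5) with limma 3.58.1 (R 4.3.3), with a variance trend, for 12299 genes averaging 0.5 FPKM or more and, since only 2 of the 10 genes reached it, for the 19124 genes detected, with Benjamini-Hochberg adjustment at 0.05. The differences and errors of the 10 genes are from the second fit unless stated. Single genes were compared by exact two-sided permutation over 35 assignments (Python 3.11.15). p-values measure the spread between mice. The fit was tested on simulated data. Groups and replicate numbers came from the labels, and coordinates are 1-based on GRCm38.

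The named genes were the 10 genes, the 4 of highest mean in each lymphocyte list, up to 4 of smallest p without overlap, the 10 most alike, and 3 of highest mean in each marker list, named where a result turned on them. Some named genes are not reported here. Genes and lists were chosen with earlier results of these data known. In all, 21 alternatives were set beforehand, and 2 were chosen after seeing the data.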

Additional observations from a re-analysis of the deposited data

Results flagged for a closer look

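*Prf1* in CTR papillomas was flagged because CTR 1 stood apart from the other 3, which were listed at 0. Its gap to the nearest other value was 1.00 of the whole range, above Dixon's critical value at 95% for 4 samples. With the other 3 at 0, any value above 0 gives this result, so the flag carries no information on CTR 1. The value of CTR 1 was 0.000525 FPKM, which is less than 1 read. No other of the 10 genes had a CTR papilloma past that critical value.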

How the results depend on the processing

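No alternative called any of the 10 genes, but 8 of the 10 were tested only where the filter was dropped. With the filter, no gene of the 10 but *Cd3g* and *Ctla4* was tested. *Cd3g* alone was tested without TG 2 or without TG 3, and 0 of the 10 with a filter at a mean of 2 FPKM. With sample quality weights, the limma adjusted p was 0.178 for *Cd3g* and 0.211 for *Ctla4*. The count of all genes called, 0 as reported, was 85 with sample quality weights (49 higher and 36 lower in TG, 0.691% of 12299), and 1 in the papillomas of lower depth. It was between 0 and 17 when each papilloma was left out, the highest without TG 3, and 2 without TG 3 and without the filter. As reported, 598 genes had a higher and 241 a lower level in TG with p under 0.05 before adjustment. The median difference of the 10 genes was 0.46 with a pseudocount of 0.1, with or without the filter, and between 0.067 (without TG 3) and 0.38 (without TG 1) when papillomas were left out. The number of genes without overlap, 0 as reported, was 3 in the papillomas of lower depth (*Foxp3*, *Ctla4* and *Prf1*), between 0 and 3 when each was left out (3 without TG 1), and 2 without TG 3 and without the filter.

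Of 220 differences of single genes under the alternatives, 6 changed sign. Many could not change, since the filter, the limma trend and moderation, and the handling of entries and status left these differences as they were. The replicate block gave the same values as leaving out CTR 4, and each alternative added later repeated an earlier one. *Cd3d* turned to -0.066 under the replicate block and without CTR 4, and ranged from -0.066 to 0.12 when papillomas were left out (-0.020 without TG 1). *Cd8a* turned to 0.0066 in the papillomas of lower depth, and *Nkg7* to -0.11 without TG 3, with and without the filter, within a range up to 0.25 without TG 1. The cause was not tested. Under the replicate block, which pairs equal replicate numbers and leaves CTR 4 without a partner, 0 genes were called. The deviations of same-numbered papillomas correlated at -0.19, 0.043 and -0.15, so the numbers did not pair the samples. Quantile normalization gave values for *Cd3g* and *Ctla4* alone. Depth also limits these results, since 21 of 70 values rest on at most 3 reads.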
